A study of Mus musculus with 6 samples.

Results

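Hepatic stellate cells and the myofibroblasts derived from them were followed through 10 marker genes, chosen by name: Lrat, Reln, Rgs5, Pdgfra, Pdgfrb, Acta2, Tagln, Myl9, Des and Vim. All 10 were found among the 18444 genes with reads in whole liver RNA of male C57BL/6 mice (C57BL/6J in the methods), sequenced as 6 libraries with 1 library per condition. In the diet model, SD was a chow diet control, HFD was a library titled HFD and labelled NASH, and HFD plus JT003 was the same model given JT003, a peptide agonist of the adiponectin receptors AdipoR1 and AdipoR2. According to the methods, the mice were 6 to 8 weeks old at the start, the diet lasted 16 weeks and JT003 was injected daily at 500 µg/kg for 4 weeks. The methods use HFD alone for fatty liver and add a methionine- and choline-deficient diet for NASH, and the labels name no diet other than HFD for these 2 libraries. In the toxin model, all 3 groups were injected every 3 days for 6 weeks. Corn oil mice received the vehicle, CCl4 mice received carbon tetrachloride as a 20% solution at 5 ml/kg, and CCl4 plus JT003 mice received JT003 in addition for 3 weeks. All mice were of the same strain, with no engineered allele named, and were fasted for 8 h before collection. The methods give 6 mice per group, and how many of them contributed RNA to a library was not stated. No spread between mice could therefore be estimated, no p-value is given, and each comparison is one between 2 libraries. The HFD library enters both diet comparisons, and the CCl4 library enters both toxin comparisons.

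Stellate cells lie between hepatocytes and the sinusoidal endothelium and store vitamin A as retinyl esters. In an injured liver they can lose these stores, divide and become contractile, matrix-producing myofibroblasts. Platelet-derived growth factor drives their division and transforming growth factor beta drives their matrix production. The contractile genes Acta2, Tagln and Myl9 are controlled by serum response factor (SRF), which binds the DNA sequence known as the CArG box. The same genes are strongly expressed by smooth muscle of the vessels, so in whole liver they do not mark stellate cells alone.

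The CArG runs near the start sites are shown because they are the DNA feature known for the contractile markers. Windows of 250 bases upstream of the start, taken from RefSeq on GRCm38.p6, were at hand for 8 of the 10 genes, not for Tagln and Pdgfrb. They were searched for the CArG box, which is CC, 6 bases of A or T, and GG, and reads alike on both strands. A CArG-like run, in which 5 of those 6 bases are A or T, was also counted. Capitals mark the run in each line, and the lower-case letters are the 10 bases on either side, 5′ to 3′ on the strand of the gene.
Acta2, CArG-like, 84 bases upstream, chr19:34255438-34255467, minus strand: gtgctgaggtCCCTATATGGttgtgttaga
Acta2, CArG-like, 34 bases upstream, chr19:34255388-34255417, minus strand: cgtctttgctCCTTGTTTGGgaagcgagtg
Myl9, CArG box, 161 bases upstream, chr2:156775293-156775322, plus strand: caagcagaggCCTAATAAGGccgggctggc
Myl9, CArG-like, 99 bases upstream, chr2:156775355-156775384, plus strand: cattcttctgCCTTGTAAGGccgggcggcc
Lrat, CArG-like, 223 bases upstream, chr3:82904178-82904207, minus strand: cttctcaccgCCAAGAAAGGtgctccattc
Of all 32851 windows in the table, 1.47% held a CArG box and 8.59% held a CArG box or a CArG-like run. Acta2 and Myl9 held a pair of runs each and Lrat held 1, while the windows of Des, Pdgfra, Reln, Vim and Rgs5 held none of these letters. The distances are from the annotated start of the gene to the first base of the run. The deposited tables hold no coordinates.

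The rounded read counts summed to between 19374236 and 20184557 per library. Albumin (Alb) had between 1067046 and 1521012 counts, as fits liver. The corn oil library differed from SD in several marker sets. Of 8 macrophage genes, 8 were at least 2-fold lower in corn oil than in SD, and 8 of the 10 measurable genes of portal fibroblasts and mesothelium were at least 2-fold higher. Of the smooth muscle genes, Actg2, Cnn1 and Myh11 were also highest there, while Tpm2 was highest in HFD, and Smtn and Csrp1 were highest in CCl4. Actg2, the enteric gamma actin, had 22 counts there, against 0 to 1 in the other 5 libraries. Cnn1 (calponin) had 24 counts against 0 to 3, and Myh11, the smooth muscle myosin heavy chain, had 115 counts against 17 to 52. Tpm2 had 107 counts there against 315 in HFD, Smtn 86 against 213 in CCl4 and Csrp1 114 against 325 in CCl4. The values of the first 3 genes move with the level of Acta2 in corn oil described below, and their part in it was not tested.

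Lrat, Reln and Rgs5 were highest in the livers of mice on HFD. Lrat (gene ID 79235) encodes the enzyme that esterifies retinol for storage. It had 145 counts in SD against 395 in HFD and 428 in HFD plus JT003. In the toxin model it had 135 counts with the vehicle, 142 with CCl4 and 258 with CCl4 plus JT003. On the FPKM scale, which is per transcript length, these were levels of 1.32, 3.69, 3.98, 1.28, 1.30 and 2.45. Both HFD libraries were high, CCl4 plus JT003 was intermediate, and SD, CCl4 and corn oil had overlapping 95% counting intervals. Reln (gene ID 19699), a secreted matrix glycoprotein made in liver by stellate cells, had 1293, 1809 and 1822 counts in SD, HFD and HFD plus JT003 and 353, 713 and 699 in corn oil, CCl4 and CCl4 plus JT003. Rgs5 (gene ID 19737), a regulator of G protein signaling typical of pericytes, had 614, 1043 and 1075 counts and 257, 405 and 425 counts in the same order. The 6 libraries took the same order for Reln and Rgs5, from HFD plus JT003 at the top, through HFD, SD, CCl4 plus JT003 and CCl4, to corn oil. For both genes, the levels with and without JT003 overlapped in each model, and the other neighbors in that order did not. Their Pearson correlation over the 6 libraries was 0.98, the highest of the 45 pairs of markers, and is given only as a description of 6 points that share library, depth and length effects.

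The receptors for platelet-derived growth factor followed different orders. Pdgfra (gene ID 18595), the alpha receptor, had 213, 160 and 184 counts in SD, HFD and HFD plus JT003, and 105, 115 and 149 counts in corn oil, CCl4 and CCl4 plus JT003. Its FPKM ran from 0.81 in corn oil to 1.59 in SD, and every pair of neighbors in its order overlapped. Pdgfrb (gene ID 18596), the beta receptor, had 218, 327 and 178 counts in the diet libraries and 143, 285 and 268 in the toxin libraries. HFD and CCl4 were its highest libraries, although every pair of neighbors in its order overlapped too. Within a library, the ratio of both receptors per transcript length is free of library scaling. Pdgfrb per Pdgfra was 1.24 (95% counting interval 1.02 to 1.505) in SD, 2.48 (2.04 to 3.01) in HFD and 1.17 (0.949 to 1.45) in HFD plus JT003. It was 1.65 (1.27 to 2.14) in corn oil, 3.004 (2.41 to 3.76) in CCl4 and 2.18 (1.78 to 2.68) in CCl4 plus JT003. The ratio in HFD lay above those in SD and HFD plus JT003 without overlap. The ratio in the single CCl4 library lay above that in corn oil, while CCl4 and CCl4 plus JT003 overlapped. In the remaining CCl4 reads described below, both receptors were higher than in corn oil, with overlapping intervals. Their log2 ratios were 0.92 (0.66 to 1.19) for Pdgfrb and 0.77 (0.47 to 1.097) for Pdgfra.

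The contractile markers were lower in the diet libraries than in CCl4 and in its vehicle, corn oil. For Acta2 and Tagln, the levels in CCl4 plus JT003 and HFD overlapped, with Tagln at 4.62 and 4.46 FPKM. Acta2 (gene ID 11475) encodes alpha smooth muscle actin, the usual stain for activated stellate cells. It had only 31, 35 and 14 counts in SD, HFD and HFD plus JT003, against 165, 108 and 45 in corn oil, CCl4 and CCl4 plus JT003. Its FPKM was 0.59, 0.69 and 0.27 in the diet libraries and 3.27, 2.07 and 0.90 in the toxin libraries, so that the vehicle control held the highest level of all 6. Reads shared with other actins were split by the authors' counting, and the value of Acta2 is uncertain to that extent. Tagln (gene ID 21345), the actin-binding protein transgelin, had 83, 139 and 82 counts in the diet libraries and 195, 306 and 142 in the toxin libraries. Myl9 (gene ID 98932), the regulatory light chain of smooth muscle myosin, had 13, 18 and 14 counts and then 53, 77 and 47. Unlike Acta2, both Tagln and Myl9 were highest in CCl4, although for Myl9 the levels in CCl4 and corn oil overlapped.

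Of the intermediate filament genes, Des varied less among libraries than Vim. Des (gene ID 13346), desmin, had 102, 103 and 74 counts in SD, HFD and HFD plus JT003, and 90, 150 and 94 counts in corn oil, CCl4 and CCl4 plus JT003. Its highest level was 1.99 times its lowest, against 12.1 times for Acta2, and all of its neighboring levels overlapped. Vim (gene ID 22352), vimentin, is made by all mesenchymal cells and by leukocytes. It had 350, 498 and 471 counts in the diet libraries and 503, 858 and 641 in the toxin libraries, with FPKM from 9.45 in SD to 23.2 in CCl4. It was the most abundant of the 10 markers per transcript length in 5 libraries. In HFD it overlapped Rgs5, and in HFD plus JT003 its 12.9 FPKM overlapped the 13.1 of Rgs5. At the other end, Acta2 was the least abundant marker in all 3 diet libraries and in CCl4 plus JT003, where its interval overlapped that of the next gene, and Pdgfra was the least abundant in corn oil and CCl4.

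**Figure D1:**
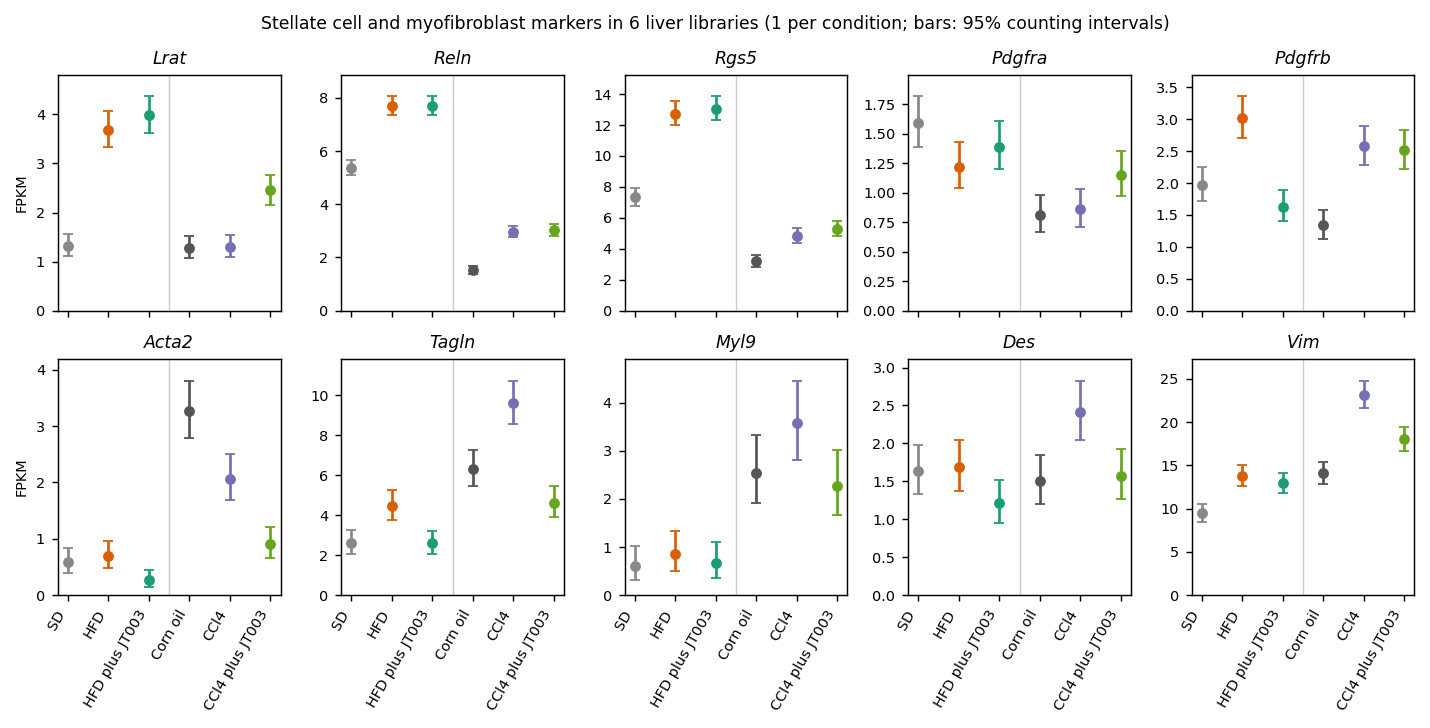
Level of each marker in FPKM (vertical axes, each from 0) in the 6 liver libraries (horizontal axes), with 1 point per library and 95% Poisson intervals that cover counting error only. Reln and Rgs5 take the same order of libraries, Lrat is high with HFD and in CCl4 plus JT003, and Acta2 is highest in corn oil at 3.27.

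The comparison of HFD with SD asks how the diet model changed the stellate cell compartment. Lrat rose, by a log2 ratio of 1.34 (95% Clopper-Pearson interval 1.08 to 1.64), which covers counting error only and rests on 145 and 395 counts. In whole liver, more cells of a type and more RNA per cell cannot be told apart. Lrat was the single marker of 10 past a 2-fold difference, where 10.1% of 13335 genes were. The genes counted here and below had a minimum of 10 reads in 1 of the 2 libraries compared. A further 5 markers were higher by less. The log2 ratio was 0.67 (0.53 to 0.82) for Rgs5, 0.64 (0.25 to 1.06) for Tagln and 0.49 (0.24 to 0.75) for Pdgfrb. It was 0.42 (0.22 to 0.62) for Vim and 0.39 (0.29 to 0.50) for Reln. Pdgfra went the other way at -0.50 (-0.81 to -0.20), so the receptors of the same ligand family had opposite signs. In all, 6 markers had intervals above 0 and 1 had an interval below 0, against 23.8% and 26.9% of all genes. Acta2, at 0.079 (-0.66 to 0.83), Des and Myl9 had intervals that held 0. The median log2 ratio of the 10 markers was 0.40, beside 0.0040 over all genes tested.

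Other genes of the same cells gave a wider response to the diet. Of 18 measurable genes among 20 of activated matrix production, 8 rose and 0 fell. Col1a1, the main fibrillar collagen chain, rose by 2.23 (2.01 to 2.48) on the log2 scale, Col3a1 rose by 1.94, and Tnc (tenascin C) rose by 2.48. Of 15 measurable genes among 16 further quiescence markers, 1 rose, which was Pparg, a nuclear receptor that both stellate cells and fatty hepatocytes express, by 1.35 (1.03 to 1.71). Of 15 measurable genes among 18 further contractile genes, 1 rose, the tropomyosin Tpm2, with 39 counts in SD and 315 in HFD. No SRF or YAP regulator of 7 measurable and no TGF-beta ligand or receptor of 6 passed 2-fold. Among the 4 ligands of the PDGF receptors, Pdgfd rose on 4 and 12 counts, Pdgfc had a log2 ratio of 0.64 (0.17 to 1.16) and Pdgfa one of -0.43 (-0.89 to 0.0061). Of 5 measurable further pericyte genes 1 rose, Ndufa4l2, with 14 and 35 counts. The macrophage genes, of which 0 of 8 passed 2-fold, had a median of 0.074.

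The comparison of HFD plus JT003 with HFD asks what the agonist did in the diet model. Acta2 fell by 1.23 on the log2 scale (-2.35 to -0.41). This rests on 35 and 14 counts, and the interval is wide. It was 1 of 10 markers past 2-fold, where 4.71% of 13453 genes were, and with the libraries scaled to Actb its log2 ratio was -0.92. Pdgfrb had the next largest difference, with a log2 ratio of -0.89 (-1.17 to -0.63) on 327 and 178 counts. It was followed by Tagln at -0.77 (-1.20 to -0.38) and Des at -0.49 (-0.95 to -0.055). These 4 markers had intervals below 0 and 0 had an interval above, against 20.3% and 20.4% of all genes. Lrat, Reln and Rgs5 stayed near the HFD level, with log2 ratios of 0.093 (-0.11 to 0.29), -0.012 (-0.11 to 0.082) and 0.021 (-0.10 to 0.15). Scaled to Actb, Reln was at 0.32 and Rgs5 at 0.36. The median of the 10 markers was -0.22, and it was 0.094 when the libraries were scaled to Actb.

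Against SD, the JT003 library thus had Lrat still 2-fold higher and Acta2 lower. The log2 ratio of HFD plus JT003 over SD was 1.44 (1.17 to 1.73) for Lrat, -1.15 (-2.29 to -0.31) for Acta2 and -0.40 (-0.70 to -0.11) for Pdgfrb. For Tagln it was -0.13 (-0.59 to 0.33). Past 2-fold were 2 of 10 markers, beside 11.1% of all genes. The ratio of Acta2 to Lrat per transcript length, a scaling-free measure, was 0.445 (0.292 to 0.659) in SD, 0.184 (0.127 to 0.261) in HFD and 0.0680 (0.0369 to 0.115) in HFD plus JT003. These 3 intervals did not overlap, but the pair was chosen with these values known. Acta2 per Tagln was 0.230 (0.147 to 0.352), 0.155 (0.104 to 0.226) and 0.105 (0.0551 to 0.187) in the same order, and these intervals overlapped. Acta2 per Reln was 0.109 (0.0738 to 0.156), 0.0880 (0.0611 to 0.123) and 0.0349 (0.0191 to 0.0588), and only the interval of HFD plus JT003 lay apart. In the matrix list, 7 of 19 measurable genes fell with JT003 and 1 rose, the surface glycoprotein gene Thy1, with 15 and 34 counts. Ccn2, a matricellular growth factor, fell by 1.42, and Col1a1 fell by 1.41 (-1.60 to -1.23). No further contractile gene of 15 passed 2-fold, with Tpm1 at -0.63 (-0.81 to -0.44). The cytoplasmic actins had log2 ratios of -0.64 (-0.70 to -0.57) for Actg1 and -0.34 (-0.38 to -0.29) for Actb. Eln (elastin) fell by 1.06, and the mesothelial genes Msln, Upk3b and Upk1b had 3, 3 and 1 counts in HFD and 36, 19 and 16 in HFD plus JT003. The part of these covering cells in the marker values was not tested.

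**Figure D2:**
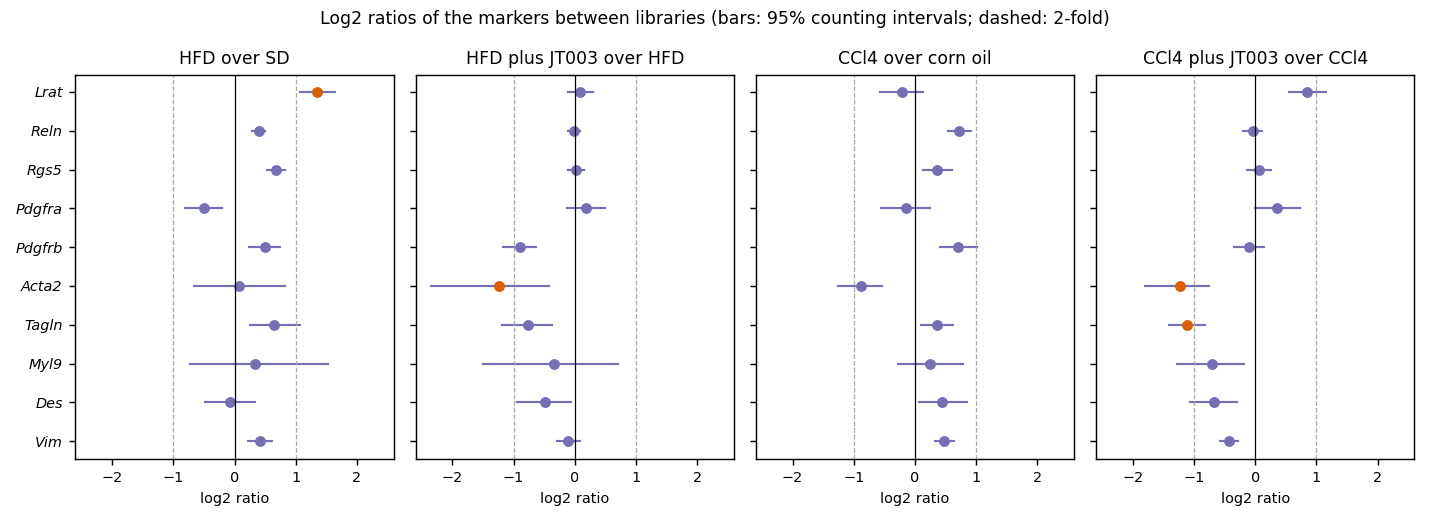
Log2 ratio of each marker (horizontal axes) for the 4 comparisons, 1 library against 1, with 95% Clopper-Pearson counting intervals. Orange points are past 2-fold (dashed lines). Acta2 is past 2-fold with JT003 in both models, at -1.23 and -1.24, and Lrat with HFD at 1.34.

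The comparison of CCl4 with corn oil asks how repeated toxin injury changed these cells. No marker of 10 passed 2-fold, where 13.7% of 13602 genes did. The log2 ratio was 0.72 (0.54 to 0.91) for Reln, 0.70 (0.41 to 1.01) for Pdgfrb and 0.48 (0.32 to 0.64) for Vim. It was 0.44 (0.062 to 0.84) for Des, 0.37 (0.14 to 0.60) for Rgs5 and 0.36 (0.098 to 0.63) for Tagln. These 6 markers had intervals above 0, against 29.3% of all genes. Acta2 was the 1 marker with an interval below 0, at -0.89 (-1.26 to -0.54), against 25.6% of all genes, and it passed 2-fold at -1.19 when the libraries were scaled to Actb. Lrat, at -0.21 (-0.57 to 0.14), and Pdgfra, at -0.15 (-0.55 to 0.24), had intervals that held 0, and both were above 0 with the libraries scaled to total reads. The median of the 10 markers was 0.36, beside 0.014 over all genes.

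The opposite sign of Acta2 stood beside that of several smooth muscle genes. Of the 18 further contractile genes, 4 rose and 5 fell in CCl4. Synpo2 (10 and 5 counts) and Pln (4 and 12 counts) were near both the count minimum and the 2-fold limit. Myh11 fell by 1.40 (-1.94 to -0.95) on 115 and 52 counts and Tpm2 fell by 1.32, while Actg2 and Cnn1 went from 22 and 24 counts to 0 each. Csrp1, a cysteine-rich LIM protein of smooth muscle and stellate cells, rose by 1.21 (0.91 to 1.54), and Actn1 and Smtn rose by 1.03 and 1.01. Within a library, Acta2 per Tagln was 0.522 (0.421 to 0.645) in corn oil and 0.218 (0.173 to 0.272) in CCl4. The ratio in CCl4 overlapped that of 0.230 (0.147 to 0.352) in SD, and corn oil had the highest ratio of the 6 libraries. How far vessel wall in the corn oil sample set the level of Acta2 was not tested.

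The matrix genes of the activated cell rose in CCl4, with 10 of 18 higher, 0 lower and a median log2 ratio of 1.12. Col1a1 rose by 3.13 (2.94 to 3.34), Col3a1 rose by 2.63 and Col1a2 rose by 2.37. Of the further quiescence markers, Nes (nestin) rose by 1.097, and Ecm1, an extracellular matrix protein, fell by 1.09 (-1.20 to -0.99). Tgfb1, the main fibrogenic cytokine, rose by 1.02 (0.70 to 1.38) and was the 1 of 6 TGF-beta genes past 2-fold. Pdgfc rose by 1.24 (0.80 to 1.76), and no regulator of the SRF and YAP list of 7 measurable passed 2-fold. Of the further pericyte genes, the potassium channel subunits Kcnj8 and Abcc9 fell by 1.27 and 1.16. Macrophage genes also rose, 6 of 8 of them, from their low level in corn oil. Their part in the value of Vim, which leukocytes express too, was not tested.

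The comparison of CCl4 plus JT003 with CCl4 gave lower contractile markers, and Lrat was higher by less than 2-fold. Acta2 fell by 1.24 (-1.81 to -0.76) on 108 and 45 counts and Tagln fell by 1.11 (-1.42 to -0.83) on 306 and 142 counts. They were 2 of 10 markers past 2-fold, where 8.88% of 13785 genes were. Scaled to Actb, itself lower with JT003 at -0.37, Acta2 was at -0.88 and Tagln at -0.75. Of the other markers, Myl9 had a log2 ratio of -0.70 (-1.28 to -0.18), Des one of -0.67 (-1.07 to -0.30) and Vim one of -0.43 (-0.58 to -0.28). Lrat had the opposite sign at 0.84 (0.55 to 1.16), and Pdgfra was at 0.36 (0.0023 to 0.73). Genes of neighboring cell types had values in the same range as Lrat. For 8 endothelial genes the median log2 ratio was 0.48, from -0.094 to 0.89 (Kdr). For 5 measurable further pericyte genes it was 0.50, from -0.21 to 0.86 (Kcnj8). Whether the value of Lrat is particular to stellate cells was not tested. Reln, at -0.039 (-0.19 to 0.11), Rgs5, at 0.059 (-0.14 to 0.26), and Pdgfrb, at -0.099 (-0.35 to 0.15), had intervals that held 0. In all, 5 markers had intervals below 0 and 2 above, against 28.6% and 24.2% of all genes. Against the remaining CCl4 reads described below, 9 were below and 0 above. The median of the 10 markers was -0.26, and it was 0.099 when scaled to Actb.

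The ratio of Acta2 to Lrat, a pair chosen with these values known, was lowest in CCl4 plus JT003 within this model. Acta2 per Lrat was 2.54 (2.01 to 3.21) in corn oil, 1.58 (1.22 to 2.05) in CCl4 and 0.363 (0.258 to 0.499) in CCl4 plus JT003, and the intervals of corn oil and CCl4 overlapped. Tagln per Lrat, in turn, was 4.87 (3.89 to 6.11), 7.27 (5.94 to 8.93) and 1.86 (1.502 to 2.29), so that CCl4 plus JT003 lay below both other libraries for either gene. Against corn oil, CCl4 plus JT003 had Acta2 lower by -2.12 (-2.68 to -1.69), which was 1 of 10 markers past 2-fold beside 11.4% of all genes. Of 15 measurable further contractile genes, 0 passed 2-fold with JT003, with log2 ratios of -0.88 (-1.23 to -0.55) for Smtn (smoothelin) and -0.86 (-1.13 to -0.60) for Csrp1. Of 18 matrix genes 2 fell, Col1a1 by 1.51 (-1.63 to -1.40) and Col1a2 by 1.23. The elastin gene Eln, of portal fibroblasts and vessel walls, fell by 1.204 (-1.48 to -0.95), and the mesothelial genes Msln and Upk3b fell by 1.47 and 1.31. The portal and mesothelial list as a whole had 3 of 10 genes lower and a median of -0.63. It moved with the contractile markers, and its part in their values was not tested.

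**Figure D3:**
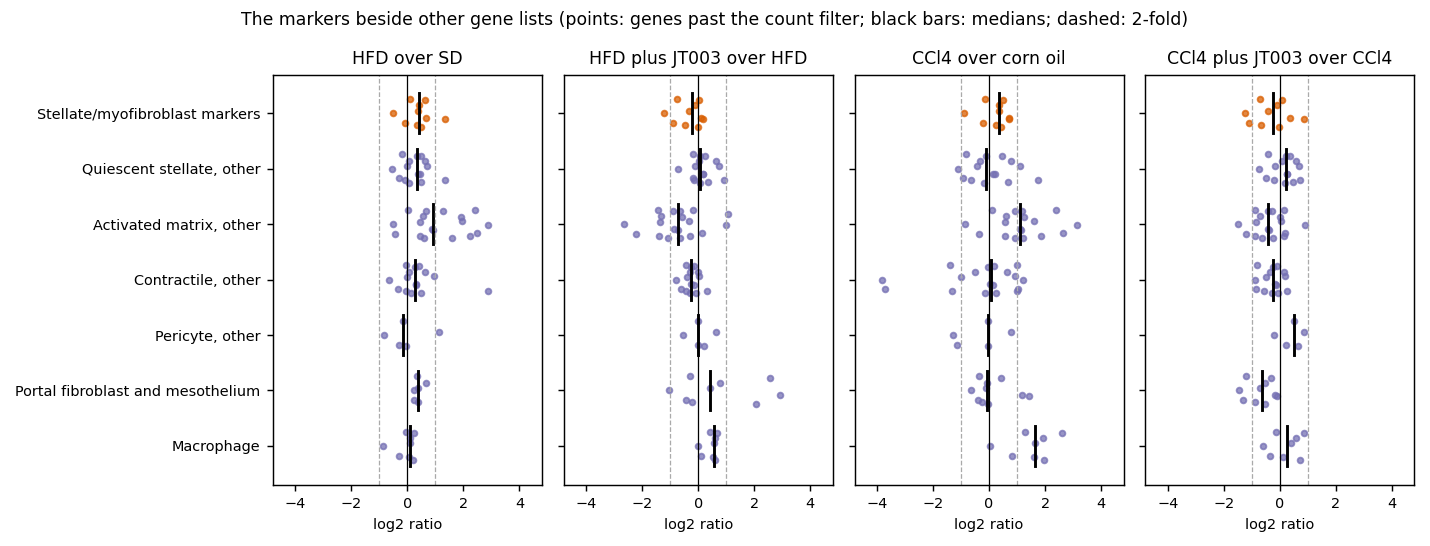
Log2 ratios (horizontal axes) of the 10 markers (orange) and of genes of 6 other lists (purple) that passed the count filter, for the 4 comparisons, with list medians as black bars. The medians of the matrix list are 0.91, -0.73, 1.12 and -0.41, and those of the 10 markers are 0.40, -0.22, 0.36 and -0.26.

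A further view of the CCl4 condition came from a table in which the authors set CCl4 beside CCl4 plus JT003. Its CCl4 column sums to 2.97 times the CCl4 library and appears, from its values, to pool that library with others. Subtracting the CCl4 library left 39780549 counts, here called the remaining CCl4 reads, and whether these come from other livers or from further runs was not stated. Over the single CCl4 library, the remaining reads had higher Rgs5, with a log2 ratio of 1.12 (0.97 to 1.28). It was 1 of 10 markers past 2-fold, beside 5.54% of all genes. Pdgfra, at 0.93 (0.64 to 1.24), Lrat, at 0.74 (0.47 to 1.03), Reln, at 0.67 (0.55 to 0.79), and Acta2, at 0.48 (0.16 to 0.81), were also higher there. Tagln and Myl9 differed less, at 0.052 (-0.15 to 0.25) and 0.19 (-0.20 to 0.59). In all, 7 of the 10 markers had intervals above 0, against 22.3% of all genes, so reads under the CCl4 heading differed by up to 1.12 in these markers.

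With the remaining CCl4 reads in place of the single library, some marker values moved and others did not. Over corn oil, Reln was higher by 1.39 (1.23 to 1.56) and Rgs5 by 1.49 (1.30 to 1.68), 2 of 10 markers past 2-fold beside 16.7% of all genes. Lrat turned to 0.53 (0.25 to 0.82) and Pdgfra to 0.77 (0.47 to 1.097), and Acta2 was at -0.41 (-0.69 to -0.13). Pdgfrb was at 0.92 (0.66 to 1.19), so the intervals of both PDGF receptors overlapped here, unlike with the single CCl4 library. With JT003, Acta2 was lower by -1.73 (-2.24 to -1.30) and Tagln by -1.16 (-1.44 to -0.91). Both stayed past 2-fold, and Rgs5 joined them at -1.06 (-1.22 to -0.91), making 3 of 10 markers beside 9.01% of all genes. Pdgfra turned from 0.36 to -0.57 (-0.85 to -0.30), Reln went to -0.71 (-0.83 to -0.58) and Vim to -0.81 (-0.94 to -0.68). In all, 9 markers then had intervals below 0 and 0 above, against 28.8% and 24.9% of all genes. The difference of Lrat with JT003 was then 0.10 (-0.12 to 0.33), so the higher Lrat after JT003 rests on which CCl4 reads it was set against. Actg2, Cnn1 and Myh11 had 20, 14 and 139 counts in the remaining reads, and the corn oil library was above them for all 3 genes after TMM scaling, at 1.31, 1.43 and 6.85 CPM against 0.471, 0.330 and 3.28. CPM are counts scaled to library size.

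**Figure D4:**
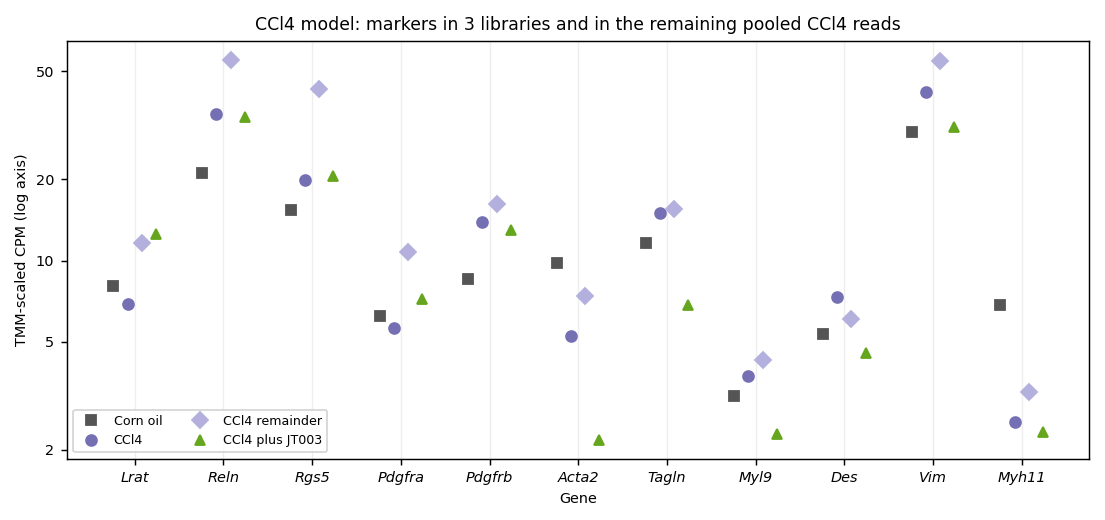
Level of each marker and of the smooth muscle gene Myh11 in TMM-scaled CPM (log axis) in corn oil, the single CCl4 library, the remaining pooled CCl4 reads and CCl4 plus JT003. Acta2 and Tagln are lowest in CCl4 plus JT003 at 2.18 and 6.88, and Lrat is at 11.6 in the remaining CCl4 reads, close to its 12.5 in CCl4 plus JT003.

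The controls of both models were also far apart in these markers, which bears on any reading across models. In corn oil over SD, with TMM scaling over all 6 libraries, Acta2 was higher by 2.48 (2.002 to 3.17), Myl9 by 2.01 (1.28 to 3.18) and Tagln by 1.36 (1.00 to 1.77). Reln was lower by -1.72 (-1.90 to -1.55) and Rgs5 by -1.10 (-1.32 to -0.89). These were 5 of 10 markers past 2-fold, where 11.1% of all genes were. A length trend ran through all genes in this comparison. The median log2 ratio was 0.38 for the 2396 genes with transcripts of up to 1500 bases and -0.38 for the 1347 genes longer than 6000 bases. The contractile markers have short transcripts, 1083 bases for Myl9, 1586 for Tagln and 2572 for Acta2, while that of Rgs5 has 4096 and that of Reln 11696 bases. The part of length in the marker values was not tested. Within each model the same medians lay between -0.10 and 0.092.

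**Figure D5:**
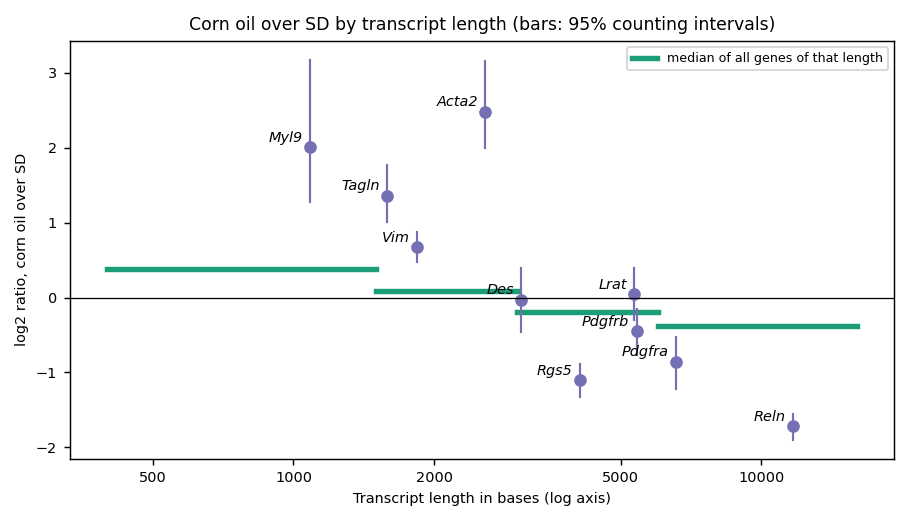
Log2 ratio of corn oil over SD for each marker (vertical axis, with 95% counting intervals) against its transcript length in bases (log axis), with the median of all genes in 4 length ranges as green bars. Short transcripts lie above 0 and long ones below in the medians, from 0.38 to -0.38, and the markers Acta2, Myl9, Reln and Rgs5 lie farther from 0 than the medians.

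Some markers resembled other genes over the 6 libraries. Among 9368 genes with a mean of at least 100 counts, the closest to Lrat was Iigp1, an interferon-inducible GTPase, with a Pearson correlation of 0.99. For Reln it was Csgalnact2, which acts in chondroitin sulfate synthesis, for Rgs5 it was Pam, an enzyme of peptide amidation, and for Pdgfrb it was B4galt5, a galactosyltransferase, at 0.996, 0.996 and 0.989. The closest gene was Naa50 for Pdgfra, Manbal for Acta2, Aes for Tagln, Aldh16a1 for Myl9, Mad2l2 for Des and Spc24 for Vim, with correlations from 0.9845 to 0.9965. These are descriptions over 6 points, and none of the 10 closest genes is of the other stellate or contractile lists. Among the 45 pairs of markers, 22 correlations were above 0 and the lowest was -0.97, between Pdgfra and Vim. In these 6 libraries the 10 markers thus did not vary as a single group. The correlations run across both models, whose controls differ by the length trend above. Pdgfra and Vim have transcripts of 6557 and 1834 bases, and the part of length in these correlations was not tested.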

How the data were processed

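Whole liver RNA of 6 libraries was sequenced by the authors on a BGISEQ-500 instrument. The submitters' processing notes name HISAT, Bowtie2, RSEM and mm9, without versions. The authors deposited expected counts per gene, in which reads shared by genes are split, and FPKM values, which are counts per transcript length and library size. Expected counts were rounded to whole numbers and divided by library sizes that edgeR 4.0.16 (R 4.3.3) corrected by TMM within each model. Log2 ratios had a prior count of 2 and 95% Clopper-Pearson intervals (scipy 1.17.1), and FPKM had Poisson intervals. Both cover counting error only, since each condition has 1 library. Molecules were not counted by identifiers, so the intervals may be too narrow even for that error. "Rose" and "fell" are written of genes past 2-fold, a log2 ratio of 1 in either direction, with a minimum of 10 counts in 1 of the 2 libraries. The ratios, their intervals and the 2-fold calls were tested on simulated counts that held counting error only. TMM scaling and the spread between mice were not part of that test.

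With 1 library per condition, no test between conditions was made. Of 4 comparison tables of the authors, 3 were not used, nor were fold changes, p-values and q-values in any. Of the fourth, the pooled CCl4 column of expected counts was used, and 7 other expression columns were not. The 10 markers and 16 further lists were chosen with earlier results of these data known. Genes named from a list were at most 3 per comparison, with the largest ratios among those with at least 50 counts, beside the other actins and the 2 genes most alike to each marker, of which 1 is named. Some genes under this rule are not reported here. Cnn1, Thy1, Pdgfd, Ndufa4l2, Synpo2, Pln, Actn1, Upk1b, Mki67, Krt19, Cd3e and Mylpf, and Msln, Upk3b, Myh11, Tpm2, Csrp1 and Smtn where not under that rule, were chosen after their values were seen. Alternatives were total reads, DESeq2 1.42.0 size factors, TMM over 6 libraries, scaling to Actb, other count minimums, prior count, threshold, log2 of FPKM plus 1 or 0.1, and the pooled CCl4 counts. Python 3.11.15, numpy 2.4.6, pandas 2.3.3 and matplotlib 3.10.9 were used.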

Additional observations from a re-analysis of the deposited data

How the results depend on the processing

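No paired analysis was possible because each condition has 1 library. No replicate was left out, there being 1 per condition. No marker past 2-fold changed sign under any alternative run. Of 394 marker values under alternatives, 349 stayed within the counting interval of the reported value, 45 did not, and 26 differed in sign from a reported value under 2-fold.

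With scaling to Actb the median of all genes was 0.33 with JT003 in HFD, -0.29 with CCl4 and 0.36 with JT003 in CCl4, and with total reads it was 0.13 with HFD and 0.24 with CCl4. Under Actb the markers past 2-fold were 0, 1 (Acta2) and 1 (Lrat), their medians 0.094, 0.055 and 0.099, and 1920 genes passed with JT003 in CCl4. The share of genes past 2-fold that were higher went from 49.9% to 81.7%, from 64.1% to 39.0% and from 52.2% to 82.2%. For HFD over SD it went from 58.9% to 69.1% under total reads, and for CCl4 over corn oil to 78.7%.

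In the order HFD over SD, JT003 in HFD, CCl4 over corn oil and JT003 in CCl4, 1345, 633, 1860 and 1224 genes passed 2-fold. With at least 100 counts these were 695, 188, 831 and 531, and the markers past 2-fold with JT003 in HFD went from 1 to 0, since Acta2 was filtered out. Without a filter, 1283 and 1884 genes passed with JT003 in HFD and in CCl4. With log2 of FPKM plus 1, which shrinks low genes, 543, 150, 763 and 391 genes and 0 markers with JT003 in either model passed. At 1.5-fold, 3150, 1935, 3955 and 3344 genes and 3, 3, 3 and 5 markers passed. With the pooled CCl4 counts the median of the markers with JT003 was -0.61. With the CCl4 library subtracted from them it was -0.76, and over corn oil it was 0.65 with 2 markers past 2-fold. TMM without the corn oil library, chosen after seeing the data, gave 2 markers past 2-fold with JT003 in CCl4, as reported.

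Counts under about 50, as for Acta2 and Myl9 in the diet libraries, gave wide intervals, and the spread between mice was not estimated.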

Other observations

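Lists of other liver cells were measured as a background to the markers. Of 8 endothelial genes, 1 was at least 2-fold higher with HFD, which was Lyve1, 2 were lower with CCl4 (Kdr and Oit3), and 0 passed with JT003 in either model. The median log2 ratio of the 8 with JT003 in CCl4 was 0.48. Of 4 bile duct genes, 3 were higher with CCl4, Sox9 was lower with JT003 in CCl4, and Krt19 was higher with JT003 in HFD, with 7 and 39 counts. Among 6 genes of other leukocytes, 2 of 5 measurable were higher with HFD and 0 of 5 with CCl4, and 1 was higher with JT003 in each model (Cd3e in HFD, with 1 and 10 counts, and Ptprc in CCl4). Of 6 hepatocyte genes, 1 was lower with HFD, Cps1, with 72063 counts in SD and 34490 in HFD, and 0 passed in the other 3 comparisons. Skeletal muscle genes were near absent, with 1 of 7 past the count filter, Mylpf, at 4 to 16 counts per library, which was lower with HFD (10 and 4 counts).

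Of 6 mitosis genes, 6 rose with CCl4 and 6 fell with JT003 in that model. Mki67, which encodes the proliferation antigen Ki-67, had 22, 929 and 105 counts in corn oil, CCl4 and CCl4 plus JT003, and 1985 in the remaining pooled CCl4 reads. The cells that divided were not identified in whole liver RNA.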
